A study of Mus musculus with 4 samples.

Results

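The insulin-like growth factor (IGF) family was read here through 10 genes: the ligands Igf1 and Igf2, the receptors Igf1r and Igf2r, and the binding proteins Igfbp2, Igfbp3, Igfbp4, Igfbp5, Igfbp6 and Igfbp7. They were chosen by name, as every probe set that the platform annotation gives to 1 of these symbols, and they are 10 of the 18193 genes named on the array. In all, 28 probe sets read them, from 1 for Igfbp2 and Igfbp6 to 6 for Igfbp4. Of these, 23 had a scaled signal of 100 or more in all 4 arrays, and 11 have a name that marks probes shared between transcripts or genes.

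The samples were muscle dissected from BALB/c mouse embryos at E13.5, hybridised to Affymetrix expression arrays in a study of the part skeletal muscle plays when motor neurons develop. The 4 arrays came from MyoD-/- limb muscle (Myod null), WT limb muscle, Myf5-/- back muscle (Myf5 null) and WT back muscle, with 1 array for each. The sources used here do not say how many embryos gave the RNA of an array or which part of each gene was removed. Myod1 and Myf5, the deleted genes, encode transcription factors that turn precursor cells into myoblasts. With 1 array a group there is no replicate error and no test over samples, so each difference below is between single arrays.

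IGF1 and IGF2 are secreted growth factors that both signal through the receptor tyrosine kinase encoded by Igf1r, while the receptor encoded by Igf2r takes up IGF2 and sends it to the lysosome. Binding proteins of the IGFBP2 to IGFBP6 kind hold the ligands outside the cell and either keep them from the receptor or carry them to it, and IGFBP7 is a related protein with low affinity for IGFs. In the embryo IGF2 is a main growth factor of many tissues, and in cultured mouse muscle cells IGF2 and IGFBP5 are made as myoblasts differentiate.

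Signals are intensities scaled so that each array had a trimmed mean of 500. Where a signal was under 100 no level was taken from it, and ratios to it are bounds. Sums of signal over markers are an exception, since signals under 100 entered them as they were. A gene or probe set was counted when its signals differed at least 2-fold and the brighter one reached 200. Each gene is represented by its brightest probe set unless another is named, and signals of different probe sets are not set against each other. Probe sets of 1 gene differed in their log2 ratios with a median SD of 0.35 in MyoD-/- limb over WT limb, 0.32 in the back arrays and 0.35 in WT limb over WT back. This SD holds the noise of probes, not of animals.

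The labels were checked first. Myod1 had a signal of 688 in MyoD-/- limb and 1438 in WT limb. Myf5 had 583 in the array labelled Myf5-/- back and 508 in WT back, which goes against the label, so that array is named by its label below. The place of the probes relative to the deleted part is not given here. Of 11 markers of skeletal muscle, all had a signal of 100 or more in all 4 arrays. Their summed signal was 49069 in MyoD-/- limb against 77652 in WT limb, and 99434 in the array labelled Myf5-/- back against 148317 in WT back. Summed over 8 cartilage markers, signal was 20625 in MyoD-/- limb against 17264 in WT limb, and 4322 in the array labelled Myf5-/- back against 19788 in WT back. The ratio of the 3′ to the 5′ probe set of Gapdh was 8.06 in MyoD-/- limb against 12.2 in WT limb, and 9.46 in the array labelled Myf5-/- back against 6.45 in WT back. For Actb it was 3.86 in MyoD-/- limb, 6.88 in WT limb, 4.28 in the array labelled Myf5-/- back and 3.20 in WT back. In both genes WT limb had the highest ratio and WT back the lowest, so the WT limb and WT back arrays differed most in this. In dissected pieces, fewer cells of a type and less RNA per cell cannot be told apart. The part of tissue make-up and of RNA quality in the differences below was not tested.

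The sequences before the start sites of Igf1, Igfbp5 and Igfbp4 are shown here because MyoD and Myf5 bind DNA at the E-box. These 3 members were picked after their values were seen, as those whose brightest probe set differed most between limb and back without overlap. In each, the 250 bases before the RefSeq start site (build GRCm38.p6) are printed 5′ to 3′, with E-boxes (CANNTG, which reads the same on both strands) in capitals. They lie at chr10:87860861-87861110 on the plus strand for Igf1, chr1:72874866-72875115 on the minus strand for Igfbp5 and chr11:99040994-99041243 on the plus strand for Igfbp4.
Igf1: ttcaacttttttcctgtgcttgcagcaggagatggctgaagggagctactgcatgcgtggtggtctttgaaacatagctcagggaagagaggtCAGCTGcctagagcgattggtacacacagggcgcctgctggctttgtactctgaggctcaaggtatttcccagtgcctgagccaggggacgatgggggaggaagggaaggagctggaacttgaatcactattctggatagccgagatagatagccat
Igfbp5: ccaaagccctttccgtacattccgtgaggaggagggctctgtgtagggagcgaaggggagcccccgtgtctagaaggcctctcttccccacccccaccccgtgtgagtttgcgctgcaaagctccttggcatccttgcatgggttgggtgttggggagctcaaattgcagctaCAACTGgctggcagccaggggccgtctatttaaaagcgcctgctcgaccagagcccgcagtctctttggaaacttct
Igfbp4: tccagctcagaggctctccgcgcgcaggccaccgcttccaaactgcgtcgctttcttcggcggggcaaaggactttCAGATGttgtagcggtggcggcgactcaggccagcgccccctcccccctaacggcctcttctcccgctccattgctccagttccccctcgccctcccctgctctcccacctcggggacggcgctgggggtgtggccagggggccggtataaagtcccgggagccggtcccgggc
Each window held 1 E-box, and only the 1 before Igf1 was a CAGCTG. All 10 members matched an entry, with 14 start sites among them, of which 9 had an E-box and 1 had a CAGCTG. Over all 32851 windows of this length, 66.2% held an E-box and 13% a CAGCTG. Among the windows of members the shares were 64.3% and 7.14%, and a match is a description of letters, not of binding.

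Igf1, the ligand that in later life carries much of the action of growth hormone, was lower in limb than in back in all 4 of its probe sets. The brightest had a signal of 4648 in MyoD-/- limb, 4404 in WT limb, 9834 in the array labelled Myf5-/- back and 10926 in WT back. Both limb arrays were below both back arrays, and within each body region the 2 arrays lay close together. The log2 ratio was -1.31 for WT limb over WT back, or 2.48-fold lower, and -1.08 for MyoD-/- limb over the array labelled Myf5-/- back, or 2.12-fold lower.

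The other probe sets of Igf1 gave the same order of limb and back. The second had 3738 in MyoD-/- limb, 3892 in WT limb, 9431 in the array labelled Myf5-/- back and 8138 in WT back. A dimmer one had 752 in MyoD-/- limb, 565 in WT limb, 1379 in the array labelled Myf5-/- back and 1712 in WT back. Limb was below back in it as well, with the order within the back arrays turned round against the second probe set. The last had 498 in MyoD-/- limb, 555 in WT limb, 1602 in the array labelled Myf5-/- back and 1249 in WT back. Over the 4 probe sets the log2 ratio ran between -1.60 and -1.06 for WT limb over WT back and between -1.68 and -0.87 for MyoD-/- limb over the array labelled Myf5-/- back. Under quantile normalization and loess none of these ratios came nearer to 0 than -0.90. In 3 of the 4 probe sets every limb array was at least 2-fold below every back array, which held in this direction for 0.429% of all named probe sets. The 4 probe sets read 1 gene and are not separate observations.

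**Figure D1:**
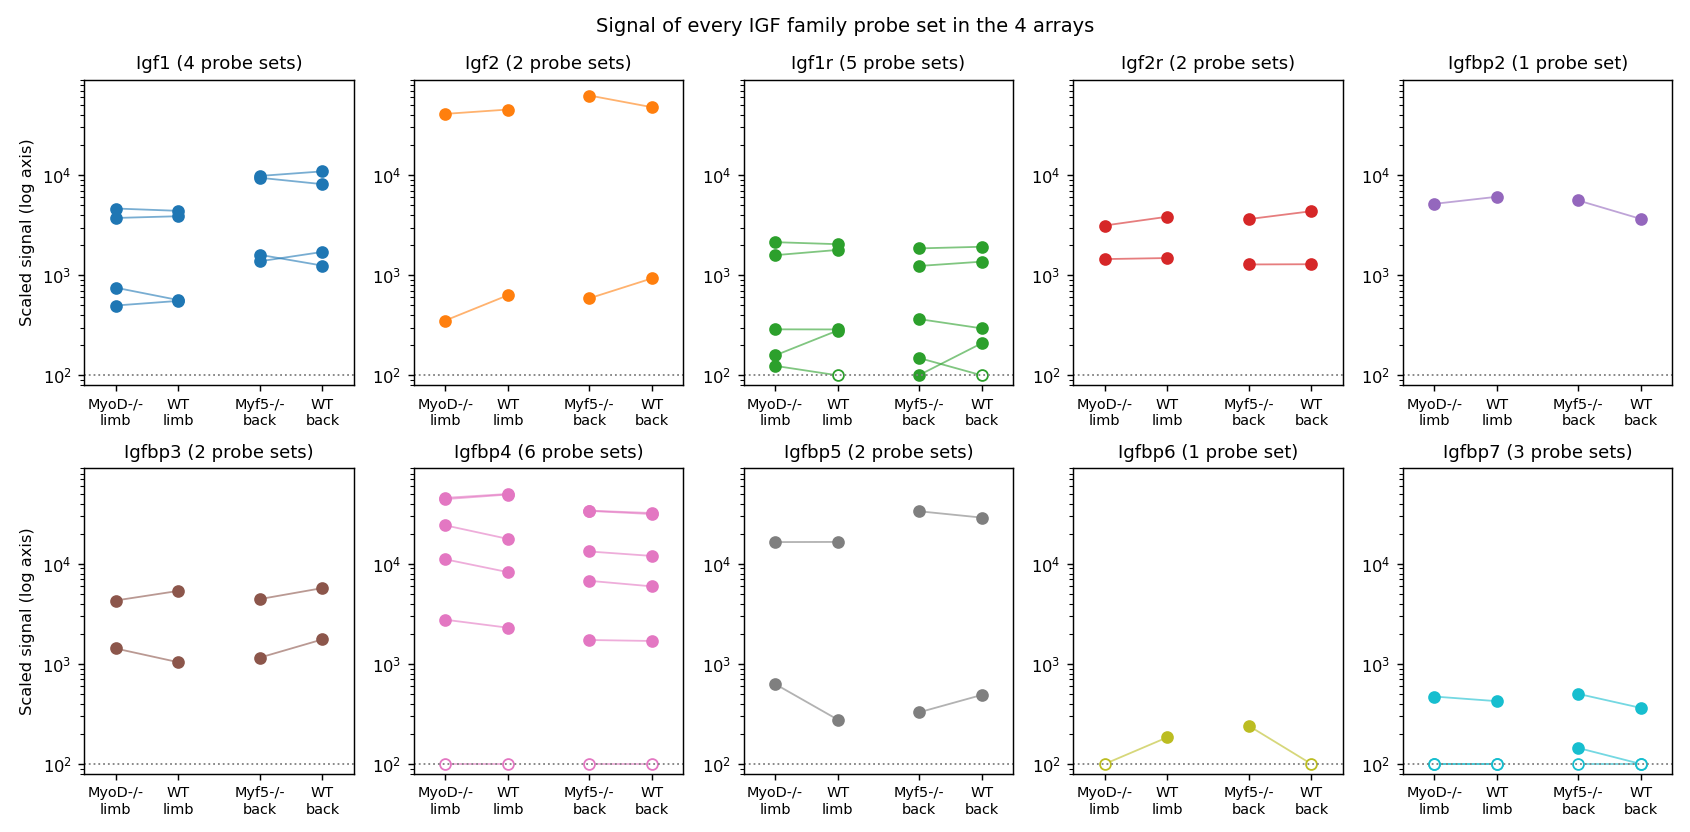
Scaled signal (log axis) of every probe set of the 10 members in MyoD-/- limb, WT limb, the array labelled Myf5-/- back and WT back. Each line is 1 probe set, joining a mutant array to its WT array, and open points on the dotted line are signals under 100. All 4 probe sets of Igf1 lie lower in both limb arrays than in both back arrays, and 5 of the 6 of Igfbp4 lie higher.

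In neither mutant pair did Igf1 move in 1 direction over its probe sets. The log2 ratio of the brightest was 0.08 for MyoD-/- limb over WT limb and -0.15 for the array labelled Myf5-/- back over WT back. In each pair 2 probe sets were above 0 and 2 below, between -0.15 and 0.41 in the limb and between -0.31 and 0.36 in the back.

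Markers of several cell types moved with Igf1 between limb and back. All 5 macrophage markers were lower in WT limb than in WT back and lower in MyoD-/- limb than in the array labelled Myf5-/- back. Their summed signal was 3178 in MyoD-/- limb, 3828 in WT limb, 6042 in the array labelled Myf5-/- back and 6553 in WT back, and C1qa, a complement gene of macrophages, was under 100 in MyoD-/- limb. Of 6 measured markers of nerve fibres and Schwann cells, 6 were lower in WT limb than in WT back and 4 were lower in MyoD-/- limb than in the array labelled Myf5-/- back. Their summed signal was 1705 in MyoD-/- limb, 1423 in WT limb, 2342 in the array labelled Myf5-/- back and 3101 in WT back. Of the 11 muscle markers, 10 were lower in WT limb than in WT back and 11 in MyoD-/- limb than in the array labelled Myf5-/- back. Summed signal was also lower in limb in both comparisons for markers of liver and yolk sac, smooth muscle and pericytes, fibroblasts and endothelium. It was higher in limb in both for epidermis and the osteoblast lineage, and differed in direction for the remaining lists. The part of any of these in the difference of Igf1 was not tested.

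Igf2, the fetal ligand that is expressed from the paternal allele, was read by 1 very bright and 1 dim probe set. The bright one had 41014 in MyoD-/- limb, 45331 in WT limb, 62585 in the array labelled Myf5-/- back and 47800 in WT back. The array labelled Myf5-/- back stood above the other 3, which lay close together. Its log2 ratio was 0.39 over WT back, and that of MyoD-/- limb over WT limb was -0.14. The limb ratio turned to 0.18 under quantile normalization and to 0.07 after loess, and the back ratio shrank to 0.02 and 0.24.

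The dim probe set of Igf2 was lower in both mutant arrays. It had 353 in MyoD-/- limb against 632 in WT limb (log2 ratio -0.84), and 589 in the array labelled Myf5-/- back against 932 in WT back (-0.66). In the back pair the 2 probe sets of Igf2 thus had opposite signs. For WT limb over WT back both were below 0, at -0.08 for the bright and -0.56 for the dim one, and for MyoD-/- limb over the array labelled Myf5-/- back they were -0.61 and -0.74.

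Igf1r, the receptor through which both ligands signal, differed little between mutant and WT arrays in its 2 brighter probe sets. The brightest had 2143 in MyoD-/- limb, 2045 in WT limb, 1857 in the array labelled Myf5-/- back and 1927 in WT back. Both limb arrays were above both back arrays, but by little, with a log2 ratio of 0.09 for WT limb over WT back. Its log2 ratio was 0.07 for MyoD-/- limb over WT limb and -0.05 for the array labelled Myf5-/- back over WT back. The second had 1587 in MyoD-/- limb, 1792 in WT limb, 1239 in the array labelled Myf5-/- back and 1368 in WT back. It gave -0.17 in the limb pair and -0.14 in the back pair. Both limb arrays were above both back arrays in it too, with 0.39 for WT limb over WT back and 0.36 for MyoD-/- limb over the array labelled Myf5-/- back.

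Dim probe sets of Igf1r did not follow the bright ones. One had 158 in MyoD-/- limb against 280 in WT limb (-0.83), and 101 in the array labelled Myf5-/- back against 209 in WT back (-1.06). This was the only member probe set counted as at least 2-fold lower in the back pair, where 2.16% of all named probe sets were. Another Igf1r probe set, which the annotation assigns to the same source sequence, gave 0.00 in the limb and 0.31 in the back. The last was under 100 in both WT arrays and reached 124 in MyoD-/- limb and 149 in the array labelled Myf5-/- back, below the minimum of 200.

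Igf2r, the receptor that clears IGF2 and in the mouse is expressed from the maternal allele, differed little. Its brighter probe set had 3142 in MyoD-/- limb against 3846 in WT limb (log2 ratio -0.29), and 3642 in the array labelled Myf5-/- back against 4370 in WT back (-0.26). The dimmer one had 1451 in MyoD-/- limb against 1487 in WT limb (-0.03), and 1283 in the array labelled Myf5-/- back against 1290 in WT back (-0.01). All 4 ratios were below 0 and smaller than the spread between probe sets of a gene.

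**Figure D2:**
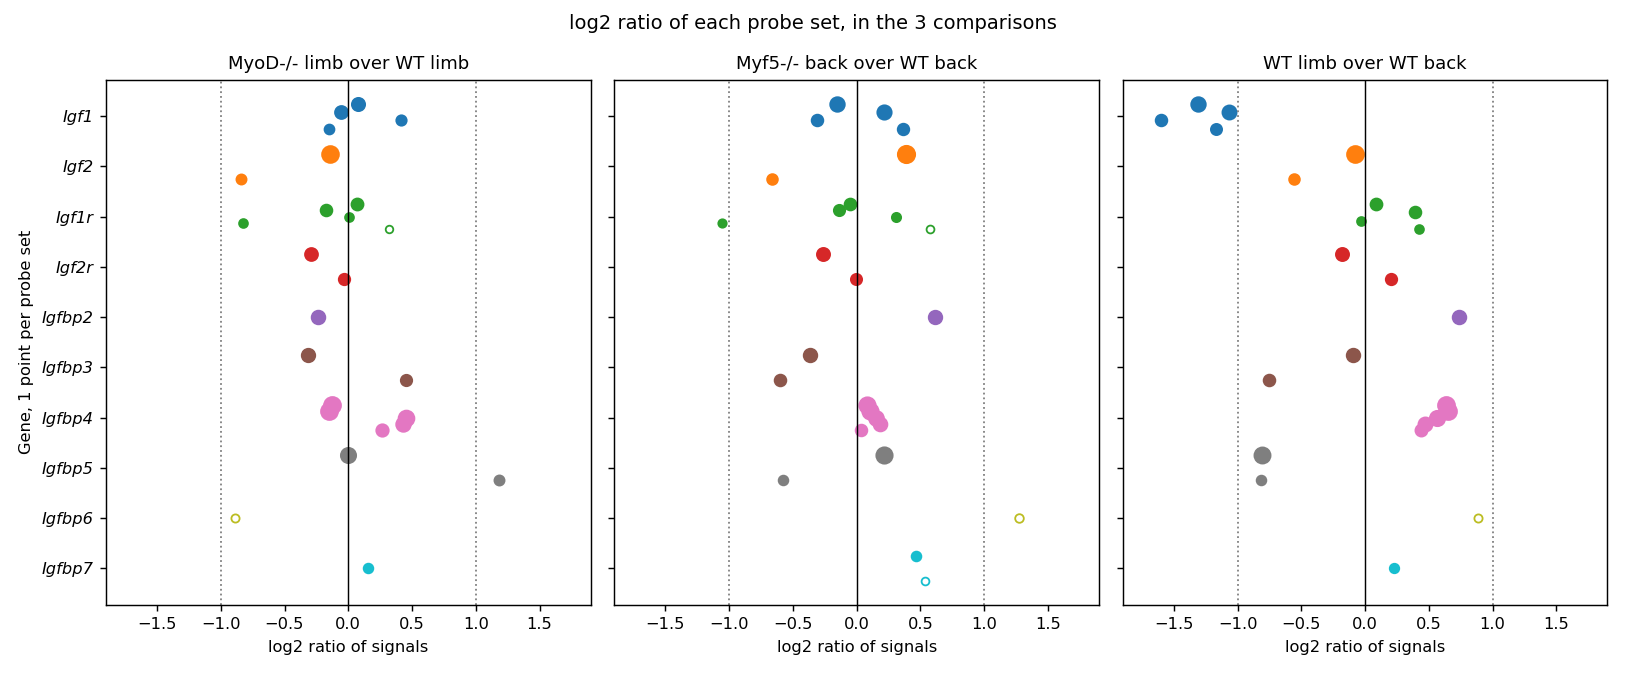
The log2 ratio of signals (x axis) for each probe set of the 10 members in 3 panels: MyoD-/- over WT limb, the array labelled Myf5-/- back over WT back, and WT limb over WT back. Larger points are brighter, open points rest on 1 array under 100, and dotted lines mark 2-fold. All 4 Igf1 probe sets lie past 2-fold only in the limb over back panel, and Igfbp5 shows 2 probe sets far apart in the limb pair.

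Of the binding proteins, Igfbp5, which binds IGFs and also the extracellular matrix, followed Igf1 in its bright probe set. This had 16530 in MyoD-/- limb, 16584 in WT limb, 33586 in the array labelled Myf5-/- back and 29028 in WT back. The 2 limb arrays were nearly equal, and both were below both back arrays. The log2 ratio was -0.81 for WT limb over WT back, or 1.75-fold lower, and -1.02 for MyoD-/- limb over the array labelled Myf5-/- back, or 2.03-fold lower. The last was counted, but at -0.93 under quantile normalization and -0.99 after loess it was under 2-fold.

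A dim probe set of Igfbp5 differed from the bright one in both mutant pairs. It had 632 in MyoD-/- limb against 278 in WT limb, 2.27-fold higher (log2 ratio 1.18), and 329 in the array labelled Myf5-/- back against 490 in WT back (-0.58). It was the only 1 of the 28 member probe sets counted as higher in the MyoD-/- limb pair, where 2.16% of all named probe sets were, and none was counted as lower, against 4.1%. The bright probe set gave -0.00 in the limb pair and 0.21 in the back pair. For WT limb over WT back the 2 probe sets were alike, at -0.82 for the dim and -0.81 for the bright one. For MyoD-/- limb over the array labelled Myf5-/- back the dim one turned round, to 0.94.

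Igfbp4, a binding protein that restrains IGF action until it is cut by the protease PAPP-A, was higher in limb than in back. The brightest of its 6 probe sets had 45713 in MyoD-/- limb, 50004 in WT limb, 34057 in the array labelled Myf5-/- back and 32240 in WT back. In 5 of the 6 both limb arrays were above both back arrays, and the sixth was under 100 in all 4. Over these 5 the log2 ratio ran between 0.44 and 0.65 for WT limb over WT back and between 0.39 and 0.87 for MyoD-/- limb over the array labelled Myf5-/- back. None reached 2-fold. All 6 have names that mark shared probes, and pairs of them read the same source sequence.

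Within the limb pair the probe sets of Igfbp4 did not share a direction. There its 2 brightest probe sets were at -0.13 and -0.15 and the other 3 between 0.27 and 0.45, and under quantile normalization all 5 were above 0, between 0.20 and 0.65. In the back pair all 5 lay between 0.03 and 0.18. There the 2 brightest turned to -0.08 and -0.06 under quantile normalization, where the 5 ran between -0.08 and 0.25. After loess these 2 were at -0.03 and -0.00.

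Igfbp2, a binding protein of fetal tissues that prefers IGF2, was lowest in WT back. Its 1 probe set had 5172 in MyoD-/- limb, 6089 in WT limb, 5589 in the array labelled Myf5-/- back and 3649 in WT back. The array labelled Myf5-/- back was close to the limb arrays rather than to WT back. Its log2 ratio was 0.61 over WT back, that of MyoD-/- limb over WT limb was -0.24, and that of WT limb over WT back was 0.74. For MyoD-/- limb over the array labelled Myf5-/- back it was -0.11, so the limb and back difference of the WT arrays was not seen between the mutant arrays. Beside this stand the cartilage markers given above and 6 markers of liver and yolk sac, of which 2 were above 0 and 4 below in the back pair, 3 of them at least 2-fold lower. Their summed signal was 775 in the array labelled Myf5-/- back and 2890 in WT back. Afp, the alpha-fetoprotein gene of embryonic liver, was under 100 in the array labelled Myf5-/- back and 1651 in WT back. Apoa1 went the other way, at 229 in the array labelled Myf5-/- back against 177 in WT back. The cartilage and liver sums were thus lower where Igfbp2 was higher. Marker sums were higher in the array labelled Myf5-/- back for red blood cells (130279 against 81848 in WT back) and epidermis (8417 against 6379). So were those of fibroblasts and the osteoblast lineage, and the sums of all other marker lists were lower. The part of any of these in the difference of Igfbp2 was not tested.

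Igfbp3, which carries most IGF in adult blood and binds both ligands, was lower in the array labelled Myf5-/- back in both of its probe sets. The brighter had 4449 there against 5736 in WT back (log2 ratio -0.37), and 4307 in MyoD-/- limb against 5372 in WT limb (-0.32). The dimmer had 1157 in the array labelled Myf5-/- back against 1760 in WT back (-0.60), but 1429 in MyoD-/- limb against 1042 in WT limb (0.46). In the limb pair the 2 probe sets of Igfbp3 thus had opposite signs. For WT limb over WT back they gave -0.09 and -0.76.

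Igfbp6, a binding protein with a strong preference for IGF2, was close to the floor in all 4 arrays. Its 1 probe set had 185 in WT limb and 241 in the array labelled Myf5-/- back, and it was under 100 in MyoD-/- limb and in WT back. It was therefore at least 2.41-fold higher in the array labelled Myf5-/- back than in WT back, and the limb pair ran the other way, with MyoD-/- limb at least 1.85-fold lower. It was the only member gene counted in either mutant pair and the only member probe set counted as higher in the back pair, where 4.32% of all named probe sets were. It was no longer counted with a floor of 200 or a pseudocount of 100.

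Igfbp7, found in vessel walls and connective tissue, was read above 100 in all arrays by 1 of its 3 probe sets. That had 473 in MyoD-/- limb against 425 in WT limb (log2 ratio 0.15), and 502 in the array labelled Myf5-/- back against 363 in WT back (0.47). A second probe set was under 100 except in the array labelled Myf5-/- back, where it reached 145, and the last was under 100 in all 4 arrays.

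Read together, the members showed few 2-fold differences. In MyoD-/- limb over WT limb, 0 of 10 genes were counted in either direction, against 1.84% of all genes higher and 4.14% lower. Their median log2 ratio was -0.14, with 3 above 0 and 7 below, and over all genes at 100 or more in 1 of the arrays it was -0.04. In the array labelled Myf5-/- back over WT back, 1 of 10 was counted as higher and 0 as lower, against 4.44% and 2% of all genes. The median was 0.14, with 6 above 0 and 4 below, against 0.05 over all genes. Counts of 0 or 1 among 10 genes are not far from these shares.

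For WT limb over WT back, 0 of 10 members were counted as higher and 1, Igf1, as lower, against 4.25% and 2.81% of all genes, and the median was 0.00, against 0.04 over all genes. By probe sets, 4 of 28 were counted as lower, all of Igf1, against 3.24%. Between the mutant arrays, MyoD-/- limb over the array labelled Myf5-/- back, 3 of 10 members were counted as lower, against 6.21% of all genes, and 0 as higher, against 2.9%. These were Igf1, Igfbp5 and Igfbp6, the last at least 2.41-fold lower. The 2 comparisons share no array, though in the second the deleted gene differs along with the body region. Both limb arrays were below both back arrays in 3 of 10 members, Igf1, Igf2 and Igfbp5, against 14.4% of all genes. They were above both back arrays in 2, Igf1r and Igfbp4, against 13.6%. These shares are over all 18193 genes, dim ones included. Between the nearest limb and back arrays, the gap was 0.08 (log2) for Igf2 and 0.09 for Igf1r. Both gaps are under the spread of 0.35 between probe sets. The dim probe sets of Igf2 and Igfbp5 overlapped between limb and back. A dim probe set of Igf1r had both limb arrays below both back arrays, by 0.03.

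**Figure D3:**
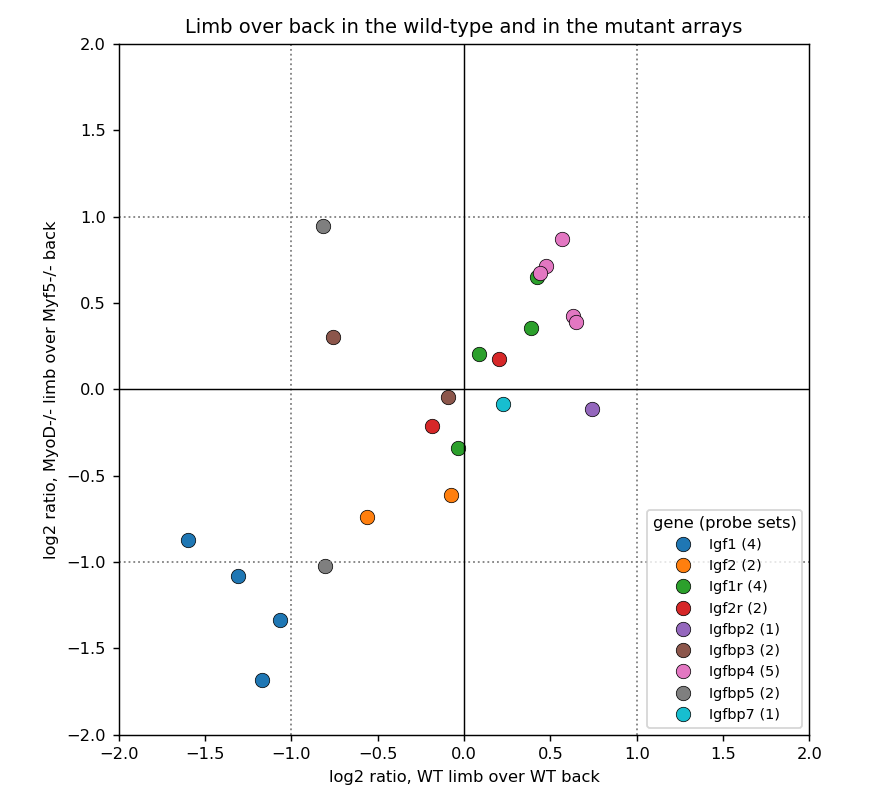
The log2 ratio of WT limb over WT back (x axis) against that of MyoD-/- limb over the array labelled Myf5-/- back (y axis), for the 23 member probe sets at 100 or more in all 4 arrays, coloured by gene. The 4 Igf1 probe sets lie at the lower left and the 5 of Igfbp4 at the upper right, while 1 probe set each of Igfbp5 and Igfbp3 lies at the upper left, with opposite signs in the 2 comparisons.

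Genes with a pattern most like that of the members were sought by the distance between log2 signals, each gene centred over the 4 arrays, among 1974 genes at 100 or more in all arrays and with a range of at least 2-fold. Of the members at 100 or more in all arrays, the 3 with the widest range were Igf1, Igfbp5 and Igfbp2. Nearest to Igf1 were the neurofilament gene Nefl (distance 0.05), Mcc (0.10) and Adamts6 (0.12). Nefl had 213 in MyoD-/- limb, 194 in WT limb, 428 in the array labelled Myf5-/- back and 483 in WT back. Nearest to Igfbp5 were the annexin gene Anxa2 (0.11), the DNA polymerase gene Polk (0.11) and Cntfr, the receptor of ciliary neurotrophic factor (0.12). Nearest to Igfbp2 were Nfatc4 (0.21), Rab39b (0.23) and Tasp1 (0.26). The log2 range of Igfbp2 itself was 0.74, under 2-fold, so genes with a range as small as its own were not compared. With 4 points per gene, such a match describes these arrays only.

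Other genes of the pathway were read by lists. Of 9 genes that set how much IGF is free outside the cell, none was counted in the MyoD-/- limb pair among 7 measured, with a median log2 ratio of -0.08. In the back pair 1 of 8 was counted as lower, Htra1, which encodes a secreted serine protease able to cut IGF binding proteins. Its brighter probe set had 375 in the array labelled Myf5-/- back against 929 in WT back (log2 ratio -1.31), and the dimmer gave -0.61. Htra1 was also the 1 gene of this list counted as higher in WT limb, at 2676 against 929 in WT back (1.53), with 1.01 in the dimmer probe set. Pappa2, which encodes a protease that cuts IGFBP5, had 371 in MyoD-/- limb against 255 in WT limb (0.54). Stc2, an inhibitor of such proteases, had 349 in the array labelled Myf5-/- back against 205 in WT back (0.77), but another of its probe sets was under 100 there and 322 in WT back.

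Of 11 insulin-type receptors and adaptors, 1 was counted as lower in MyoD-/- limb: Irs4, an adaptor of the receptor kinases, was under 100 there and 212 in WT limb, at least 2.12-fold lower. None was counted in the back pair, where the largest log2 ratio was that of the insulin receptor Insr, at 1316 in the array labelled Myf5-/- back against 813 in WT back (0.69). Insr was 1499 in MyoD-/- limb against 1291 in WT limb (0.22). A dim probe set of Insr went the other way there, under 100 in MyoD-/- limb and 162 in WT limb. It was at least 1.62-fold lower, with 0.94 in the back pair. Irs1, the adaptor that links the receptors to PI3K, had 3656 in MyoD-/- limb against 2624 in WT limb (0.48), and 2628 in the array labelled Myf5-/- back against 3894 in WT back (-0.57). Grb14, which encodes an adaptor that restrains the insulin receptor, was the 1 gene counted as higher in WT limb, at 415 against 153 in WT back (1.44). The medians of this list were 0.17 in the limb pair, 0.04 in the back pair and 0.11 for WT limb over WT back.

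Of 18 named genes of PI3K, AKT and mTOR signalling, 0 were counted in either mutant pair, with medians of 0.10 in the limb and 0.12 in the back. Tsc2, an inhibitor of mTOR signalling, had the widest spread. It was 340 in MyoD-/- limb against 231 in WT limb (log2 ratio 0.56), and 351 in the array labelled Myf5-/- back against 604 in WT back (-0.79). It was the 1 gene of the list counted for WT limb over WT back, at -1.39. Akt1, the kinase at the centre of the pathway, had 3267 in MyoD-/- limb against 2744 in WT limb (0.25). It had 3726 in the array labelled Myf5-/- back against 4423 in WT back (-0.25). Dimmer probe sets of Akt1 did not follow it. One gave 1.24 in the limb pair and -0.45 in the back pair, and another gave -0.26 and 1.64. For WT limb over WT back these gave -1.54 and 1.67.

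**Figure D4:**
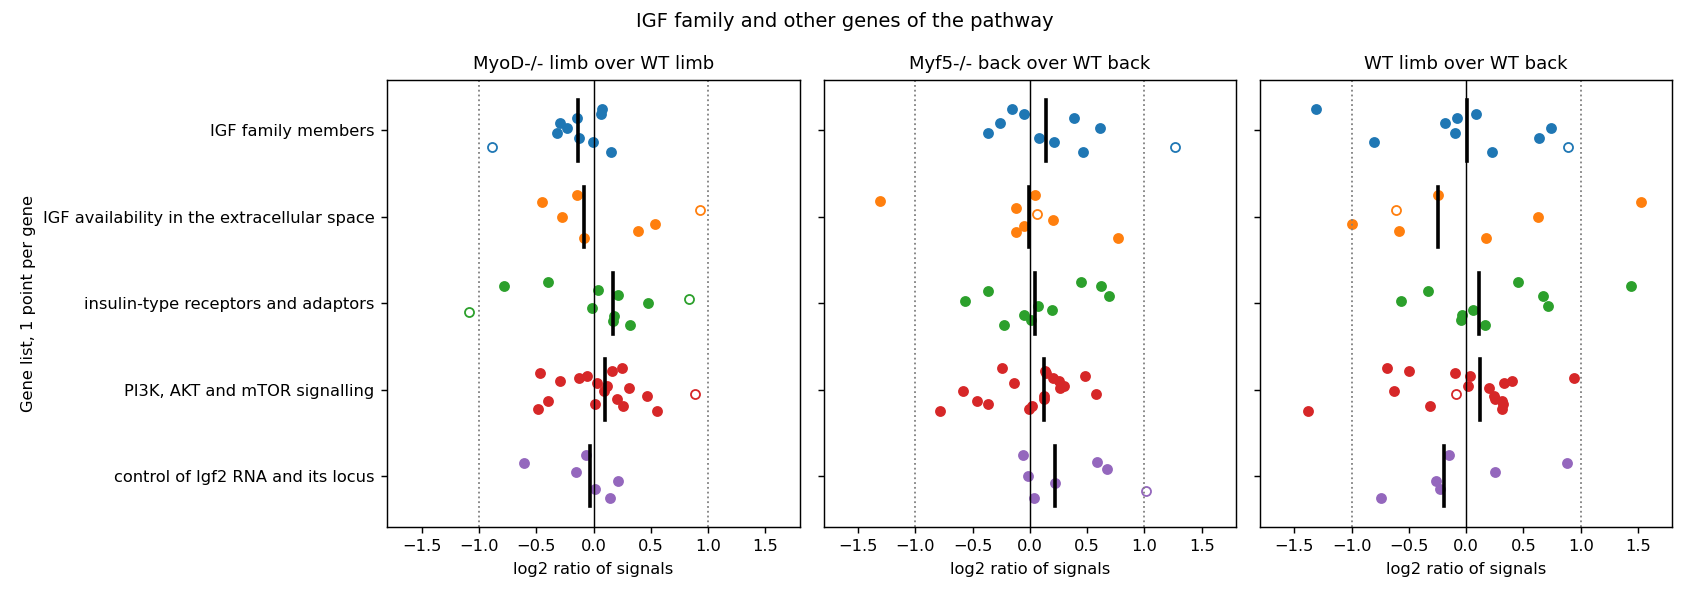
The log2 ratio of signals (x axis) for the 10 members and for 4 lists of other genes of the pathway, 1 point per gene, in the 3 comparisons. Black bars are list medians, open points rest on 1 array under 100, and dotted lines mark 2-fold. The medians lie between -0.25 and 0.22, and only a few genes of any list lie past 2-fold.

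The last list held genes that act on Igf2 RNA or its locus, of which 7 were named on the array. Igf2bp1 and Igf2bp3 encode proteins that bind Igf2 RNA. Igf2bp1 had 1786 in MyoD-/- limb against 1537 in WT limb (log2 ratio 0.22), and 1823 in the array labelled Myf5-/- back against 1841 in WT back (-0.01). A probe set of Igf2bp1 with shared probes stood apart, at 1641 in MyoD-/- limb against 448 in WT limb (1.87). It gave 0.50 in the back pair. Another probe set of Igf2bp1 had 233 in the array labelled Myf5-/- back against 481 in WT back (-1.04). It gave -0.27 in the limb pair. The last gave 0.09 in the limb pair and -0.39 in the back pair. Igf2bp3 had 3732 in MyoD-/- limb against 3706 in WT limb (0.01). It had 5080 in the array labelled Myf5-/- back against 4353 in WT back (0.22). Its other probe sets at 100 or more were below 0 in the back pair, at -0.10, -0.28, -0.36 and -0.47. In the limb pair they gave 0.56, -0.05, -0.12 and 0.55 in that order. Hmga2, a chromatin protein of embryonic tissues, was higher in the array labelled Myf5-/- back in all 4 of its probe sets, and the brightest had 13343 against 8359 in WT back (0.67). Lin28b, an RNA-binding protein of early tissues, was the 1 gene of the list counted in a mutant pair, at 202 in the array labelled Myf5-/- back and under 100 in WT back, at least 2.02-fold higher.

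Grb10 and Plagl1 are imprinted in the mouse, as Igf2 and Igf2r are. Grb10, an adaptor that restrains IGF signalling, had 35587 in MyoD-/- limb against 46755 in WT limb (log2 ratio -0.39), and 46748 in the array labelled Myf5-/- back against 34218 in WT back (0.45). Grb10 was not read under quantile normalization or loess. In the bright probe set of Igf2, of like signal, quantile normalization turned the limb ratio from -0.14 to 0.18. It took the back ratio from 0.39 to 0.02, so the signs for Grb10 may depend on the scaling. Plagl1, a zinc finger factor, had 38906 in MyoD-/- limb against 35200 in WT limb (0.14). It had 60319 in the array labelled Myf5-/- back against 58925 in WT back (0.03). Its dim probe sets differed from this. One gave -0.69 in the limb pair and -0.38 in the back pair. Another was 248 in MyoD-/- limb and under 100 in WT limb, at least 2.48-fold higher, with -0.64 in the back pair.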

How the data were processed

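RNA of 4 dissected muscles was labelled from 6 µg each and hybridised to 1 Affymetrix array per group, per the labels' protocols. The deposited values are intensities on a linear scale, 1 per probe set, made by the authors with MAS5 per the submitters' processing notes. The version of MAS5 and its scaling target are not stated in these sources, and detection calls were not used here. The 2% trimmed mean of the deposited columns was between 1477 and 1479, so the arrays had been scaled alike. Each was rescaled here to a trimmed mean of 500 with control probe sets left out. A floor of 100 was then set, and ratios between arrays were put on a log2 scale. No test over samples is possible with 1 array a group, and the number of arrays limits the precision.

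Names came from the platform annotation (34945 probe sets with 1 symbol, controls left out). The 932 with several symbols name no gene here, and this includes the probe set for H19. No unit other than intensity was used. The probe set brightest on average over the 4 arrays (log2) stood for its gene. A list's median was taken over genes at 100 or more in 1 of the compared arrays. Named genes are all members, the genes of each pathway list with the largest ratios where the brighter array reached 200 (of which the text gives part), a few fixed regulators, and the nearest patterns of the 3 members with the widest range among those at 100 or more in all arrays. Members and lists were chosen with earlier results of these data known. The comparison of the 2 mutant arrays and of both limb with both back arrays was added after seeing the data.

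Alternative settings were the deposited scale, quantile normalization, loess within a pair (span 0.3), floors of 50 and 200, a pseudocount of 100, the median over probe sets, and leaving out probe sets with shared probes. Promoters came from RefSeq (GRCm38.p6). The code that makes the calls was run on simulated data with planted changes, which checks the code and not the calls. Python 3.11.15, numpy 2.4.6, pandas 2.3.3, scipy 1.17.1, statsmodels 0.14.6 and matplotlib 3.10.9 were used.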

Additional observations from a re-analysis of the deposited data

Results flagged for a closer look

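The dim probe set of Igfbp5 moved in opposite directions in the 2 mutant pairs, with log2 ratios of 1.18 in the limb and -0.58 in the back, a difference of 1.76. The dimmer probe set of Igfbp3 did the same, at 0.46 in the limb and -0.60 in the back, a difference of 1.06. Neither difference was tested, since each group has 1 array. The brighter probe set of Igfbp5 did not show such a contrast, with -0.00 and 0.21, and neither did that of Igfbp3, with -0.32 and -0.37.

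A probe set that the annotation gives both to Igf2r and to Airn, the antisense RNA of the Igf2r locus, was left out of the members because it has several symbols. It had 163 in MyoD-/- limb against 105 in WT limb, and 275 in the array labelled Myf5-/- back, where it was at least 2.75-fold higher than in WT back, in which it was under 100. Which of the 2 transcripts it reads was not tested.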

How the results depend on the processing

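No paired analysis was possible because each group has 1 array and the labels give no replicate numbers. Of 385 values of single members under the alternatives, 366 moved by less than the spread between probe sets and 19 by more. None of the ratios past 2-fold turned round. Part of these values could hardly move. The deposited scale and a floor of 50 act on members near the floor only. Leaving out shared-probe probe sets kept the same probe set for each member it read. These settings moved 0 values. The log2 ratio of Igf1 stayed between -1.38 and -1.24 for WT limb over WT back and between -1.21 and -1.07 for MyoD-/- limb over the array labelled Myf5-/- back, under all 8 alternatives. The count of members at least 2-fold different became 1 in the MyoD-/- limb pair without rescaling (Igfbp6), 0 in the back pair with a floor of 200 or a pseudocount of 100, and 2 for WT limb over WT back after loess (Igf1 and Igfbp5). For MyoD-/- limb over the array labelled Myf5-/- back it was 3, and 2 under 6 of the 8 alternatives. Without shared-probe probe sets Igfbp2, Igfbp4 and Igfbp5 had no value. As a median over probe sets, Igfbp5 was -0.04 for MyoD-/- limb over the array labelled Myf5-/- back.

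The counts over all genes depended on the floor and the scale. In the MyoD-/- limb pair 1087 genes were counted, against 3206 without rescaling, 296 with a floor of 200, 495 with a pseudocount of 100 and 609 as a median over probe sets. In the back pair 1172 were counted, against 3318, 275, 602 and 697 in that order of settings. For WT limb over WT back 1285 were counted, against 3465, 508, 681 and 769, and for MyoD-/- limb over the array labelled Myf5-/- back 1656, against 3789, 683, 956 and 1024. Without rescaling, signals are larger against the same floor and minimum, and a higher floor or a pseudocount shrinks ratios of dim probe sets. The share of calls that were higher was 30.7% in the limb pair, 45.6% under quantile normalization and 47.7% after loess. In the back pair it was 68.9%, 50.05% and 48.3%, and between the mutant arrays 31.8%, 50.1% and 52.9%. The number of arrays limits what any of these can show, and probe sets near 100 have no reliable order.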
